A study of Sus scrofa with 16 samples.

Results

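Genes of the cell cycle and of mitosis were followed in the left ventricular myocardium of young pigs 4 weeks after cardiac ischemia/reperfusion (IR) or sham surgery. A list of 48 genes was named for their roles, from the D-type cyclins and replication factors to the mitotic kinases, the spindle, cytokinesis and the inhibitors of the cyclin-dependent kinases (CDKs). Of these, 44 had a line among the 22629 genes of the deposited tables, 42 by symbol and 2 (*CCNE1* and *CDK1*) by gene identifier. *MKI67*, *CCNA2*, *AURKA* and *RRM2* were not analysed here.

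The samples came from 8 White Yorkshire-Landrace pigs, aged 1 month at surgery, with no genetic modification named in the labels. In 4 IR pigs the left anterior descending artery was occluded for 1 h and then reperfused, and in 4 sham pigs the suture was placed but not tightened. The authors state that IR pigs were given heparin, and name none for sham pigs. IR pigs 2 and 14 and sham pigs 4 and 5 were female, and IR pigs 9 and 11 and sham pigs 12 and 13 were male. Each heart gave a scar zone sample and a border zone sample, so there were 16 libraries, 4 in each of the groups IR scar, IR border, sham scar and sham border. The scar zone of an IR pig lay below the occlusion site and held scar together with neighbouring myocardium. That of a sham pig was an equal piece from the suture site, where the operation itself can leave a mild injury.

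A cell that divides passes through G1, S, G2 and M phases. D-type cyclins with CDK4 and then E-type cyclins with CDK2 release E2F factors, which switch on the genes for DNA replication. Cyclin B with CDK1 then drives entry into mitosis, the spindle separates the chromosomes under the control of a checkpoint, and cytokinesis divides the cytoplasm. CDK inhibitors such as p21, the product of *CDKN1A*, oppose these kinases. Heart muscle cells largely stop dividing after birth and can copy DNA or divide nuclei without dividing the cell, so these transcripts in whole myocardium may come from muscle cells or from other cells. In whole tissue, fewer cycling cells and less RNA per cycling cell cannot be told apart.

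Each library held between 15427663 and 49045206 estimated counts in all. Cardiomyocyte markers were present in every library, with 13 of 15 listed markers measured and a summed level of 70965 to 92787 TPM (a level corrected for transcript length and library size). The scar zone libraries of IR pigs 9 and 11 stood apart, with fibroblast markers (10 of 10 measured) at 10053 and 10323 TPM, against 1414 to 2453 TPM in the other 14 libraries. Their macrophage and monocyte markers (10 of 10 measured) were at 421 and 535 TPM, against at most 231 TPM elsewhere. The scar zone libraries of IR pigs 2 and 14 held fibroblast marker sums of 1808 and 1414 TPM, not above the sham scar zone range of 1787 to 2453 TPM. No listed marker that had a line was at 0 in all 16 libraries, and the red cell marker *KLF1* was at 0 in every library of IR scar, sham scar and sham border. The scar zone library of pig 14, labelled female, held 4.49 CPM of the Y-linked gene *DDX3Y*, against at most 1.23 CPM in any other library of a female and 68.4 to 103 CPM in males. CPM are counts relative to the library size, here after TMM scaling, which adjusts that size for a few genes taking many reads.

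All 44 genes were measured in every library, and their levels spanned a wide range. By median TPM over the 16 libraries, *CDKN1A* was highest at 40.8 TPM (21.9 to 265 TPM), followed by *CCND1* at 37.6, *PCNA* at 28.5, *CCND2* at 27.6, *CDKN1B* at 26.0 and *CCND3* at 21.6 TPM. These 6 are the D-type cyclins, the inhibitors p21 and p27, and the replication clamp PCNA, whereas the inhibitors *CDKN2C* and *CDKN1C* were at 11.7 and 4.81 TPM. The first place of *CDKN1A* did not hold in sham pigs, with medians of 28.5 TPM in the scar and 26.6 TPM in the border zone. There *CCND1* was at 34.9 and 31.6 TPM and *PCNA* at 31.8 and 34.1 TPM. *CDK1*, the kinase of mitotic entry, had a median of 14.7 TPM (9.31 to 49.6 TPM), *AURKB*, a kinase of chromosome segregation, 14.2 TPM, and the spindle factor *TPX2* 13.6 TPM. The lowest levels were those of *CCNE2* at 1.51 TPM, the transcription factor *FOXM1* at 1.14 TPM and the replication licensing factor *CDC6* at 0.807 TPM. *CDKN1A* also varied most, with its highest library 12.1-fold above its lowest, followed by the mitotic activator *CDC20* at 5.99-fold and *CDK1* at 5.33-fold, whereas *NUSAP1*, which binds spindle microtubules, varied 1.58-fold. The ranges of neighbours in this order overlapped widely.

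**Figure D1:**
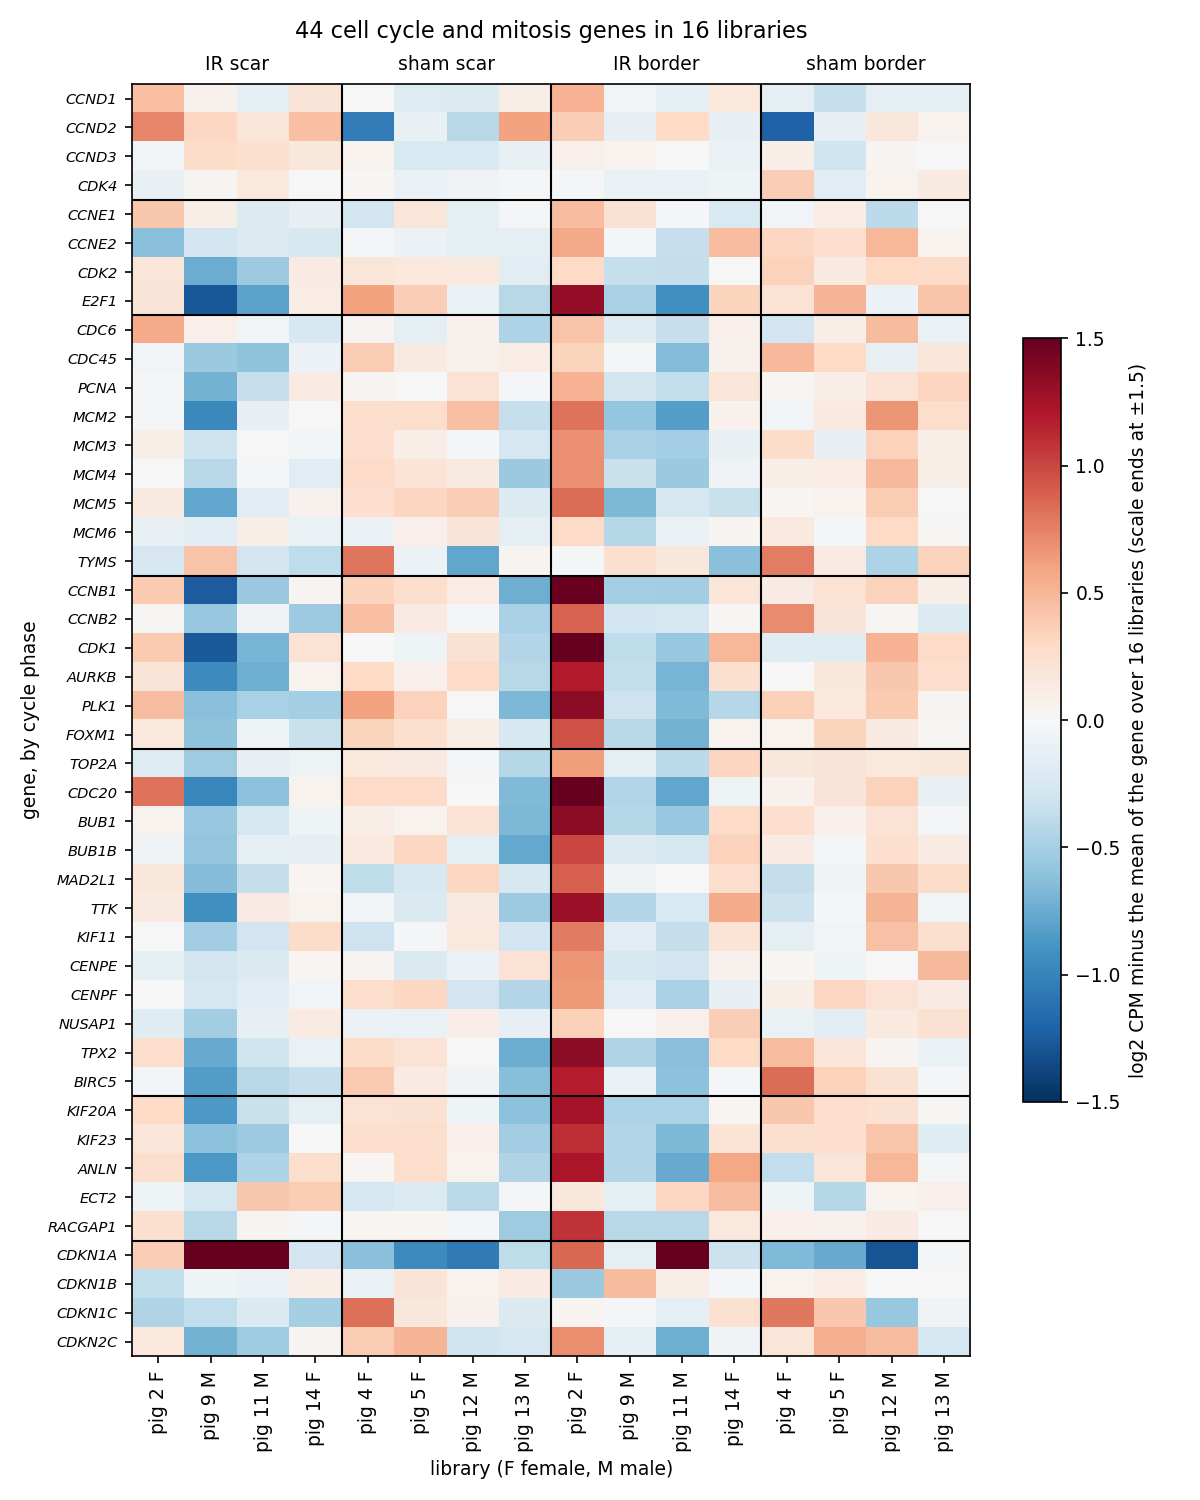
Heatmap of 44 cell cycle and mitosis genes (rows, ordered by phase and divided by lines) in 16 libraries (columns, with pig number and sex). Colour is log2 CPM minus the mean of the gene over all libraries, red above and blue below. The border zone library of pig 2 is red for most genes of S phase to cytokinesis, and *CDKN1A* is darkest in the scar zone of pigs 9 and 11 and the border zone of pig 11.

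The first comparison asked whether cell cycle transcripts differed between IR and sham pigs in the scar zone. *CDKN1A* gave the largest difference of the 44 genes. It was at 17.1, 45.5, 42.7 and 10.8 CPM in IR pigs 2, 9, 11 and 14, and at 8.54, 6.77, 6.33 and 10.1 CPM in sham pigs 4, 5, 12 and 13. All 4 IR pigs were above all 4 sham pigs, with both IR males far above both IR females. IR pigs averaged 29.01 ± 17.6 CPM and sham pigs 7.94 ± 1.74 CPM (SD, n = 4 each), and the log2 fold change was 1.87 ± 0.43 (SE). The quasi-likelihood test of edgeR did not pass the threshold after adjustment over 14023 genes (adjusted p = 0.438, Benjamini-Hochberg), whereas DESeq2 gave an adjusted p of 0.00474 and an exact two-sided permutation test gave p = 0.0286, the smallest that 4 pigs against 4 can give. Leaving out each pig in turn left the log2 fold change between 1.55 and 2.14. The IR males that had the highest *CDKN1A* were those with the high fibroblast and macrophage marker sums, and the part of these cells in the *CDKN1A* level was not tested.

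The other CDK inhibitors did not follow *CDKN1A*. *CDKN1C*, which encodes p57, was at 5.83, 6.20, 6.85 and 5.65 CPM in IR pigs 2, 9, 11 and 14, and at 14.3, 9.02, 8.39 and 6.88 CPM in sham pigs 4, 5, 12 and 13. Every IR value lay below every sham value, though pig 11 and sham pig 13 were almost equal, and the log2 fold change was -0.66 ± 0.23 (SE, edgeR adjusted p = 0.438). *CDKN1B*, which encodes p27, averaged 49.1 ± 6.56 CPM among IR pigs and 55.2 ± 4.81 CPM among sham pigs, and *CDKN2C*, an inhibitor of CDK4 and CDK6, at 20.9 ± 5.99 and 26.5 ± 7.54 CPM (SD, n = 4), with overlapping groups in both cases.

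**Figure D2:**
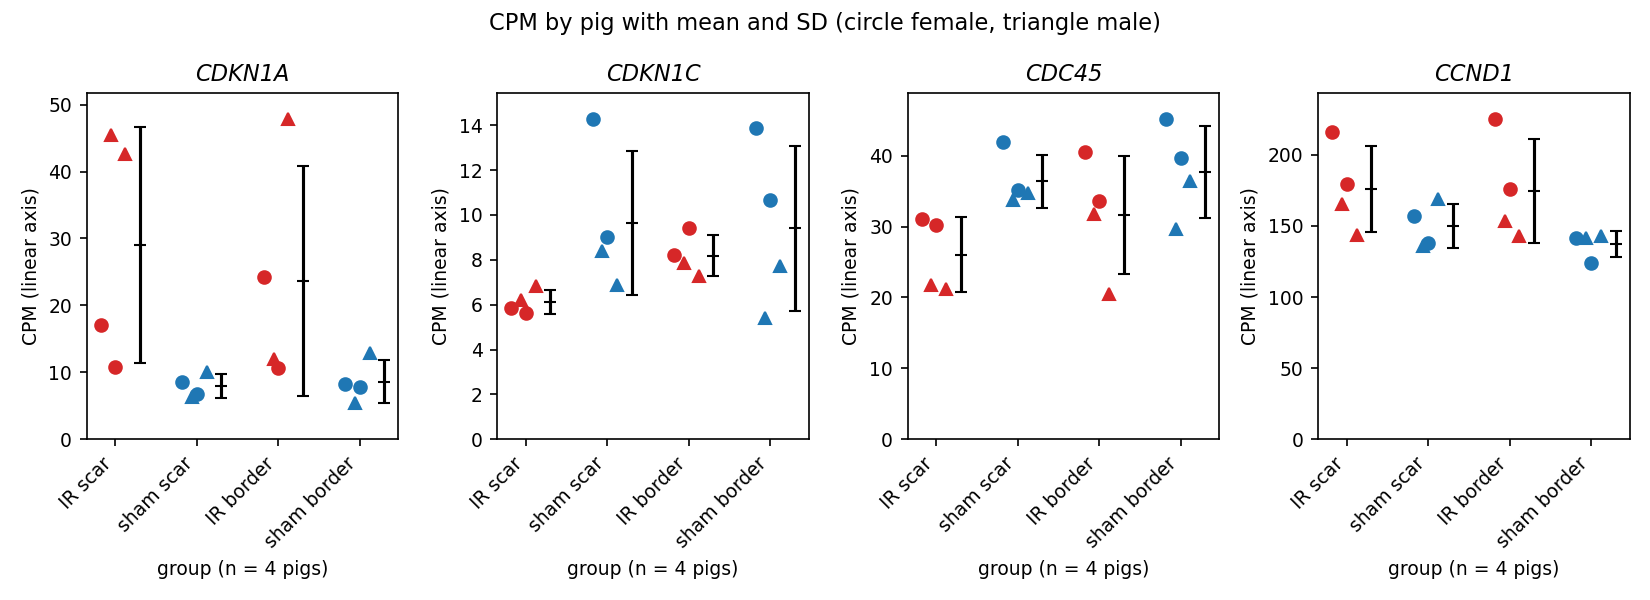
CPM of 4 genes in each pig (points, red IR and blue sham, circles female and triangles male), with the mean and SD of each group of 4 pigs beside the points. Axes are linear and start at 0. *CDKN1A* reached 42.7 to 47.8 CPM in the scar zone of pigs 9 and 11 and the border zone of pig 11, and at most 12.9 CPM in sham pigs.

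Genes of G1 gave small differences in the scar zone. *CCND3*, a D-type cyclin, was at 34.3, 42.8, 41.6 and 39.6 CPM in IR pigs 2, 9, 11 and 14, and at 36.6, 30.02, 30.1 and 32.8 CPM in sham pigs 4, 5, 12 and 13. Sham pig 4 lay above IR pig 2, so the groups overlapped, and the log2 fold change was 0.28 ± 0.12 (SE, edgeR adjusted p = 0.438). *CCND2* was at 226, 168, 155 and 187 CPM in the IR pigs and at 65.6, 126, 102 and 206 CPM in the sham pigs in the same order. The wide sham range took in 3 of the 4 IR values, and the log2 fold change of *CCND2* was 0.55 ± 0.30 (SE). *CCND1* averaged 176 ± 30.4 CPM among IR pigs and 149.9 ± 15.8 CPM among sham pigs, and *CDK4*, the kinase these cyclins activate, at 47.7 ± 3.81 and 45.6 ± 1.64 CPM (SD, n = 4). *E2F1*, which switches on S phase genes, was at 11.7, 4.19, 5.84 and 11.03 CPM in the IR pigs and at 15.6, 13.2, 9.54 and 7.67 CPM in the sham pigs.

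Of the replication genes, *CDC45*, a part of the helicase that opens DNA at the fork, had the lowest p-value. It was at 31.1, 21.7, 21.2 and 30.2 CPM in IR pigs 2, 9, 11 and 14, and at 41.9, 35.2, 33.7 and 34.7 CPM in sham pigs 4, 5, 12 and 13. The groups did not overlap, and the log2 fold change of *CDC45* was -0.49 ± 0.16 (SE, edgeR adjusted p = 0.438, exact permutation p = 0.0286). *PCNA* was at 40.8, 25.3, 32.6 and 45.1 CPM in the IR pigs and at 42.5, 41.6, 48.2 and 40.8 CPM in the sham pigs. The helicase subunit *MCM2* was at 18.4, 9.58, 17.4 and 19.0 CPM in the IR pigs and at 22.4, 22.7, 25.8 and 14.9 CPM in the sham pigs, and *MCM3* was at 10.2 to 13.4 CPM against 10.6 to 14.999 CPM. For these 3 genes the groups overlapped, and the lowest *PCNA*, *MCM2* and *MCM3* levels on the CPM scale were those of IR pig 9.

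Mitotic genes overlapped between IR and sham pigs in the scar zone. *CDK1* was at 18.4, 5.80, 8.62 and 16.3 CPM in IR pigs 2, 9, 11 and 14, and at 14.1, 13.4, 16.4 and 10.3 CPM in sham pigs 4, 5, 12 and 13, with a log2 fold change of -0.16 ± 0.34 (SE). IR female 2 was above the sham range, female 14 was within it, and both IR males were below it. The partner cyclin *CCNB1* was at 7.83 to 24.4 CPM among IR pigs and 11.2 to 23.5 CPM among sham pigs, *CCNB2* at 4.26 to 6.47 against 4.55 to 8.76 CPM, and *FOXM1* at 3.45 to 5.89 against 4.47 to 6.69 CPM. *TOP2A*, which untangles DNA before segregation, was at 32.3 to 44.5 against 34.8 to 52.0 CPM, *CDC20* at 11.9 to 41.2 against 14.8 to 28.8 CPM, and the spindle motor *KIF11* at 10.6 to 18.5 against 12.3 to 17.1 CPM. *ANLN*, a scaffold of the cleavage furrow, was at 20.1 to 44.2 against 26.9 to 44.002 CPM.

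A gene was called where edgeR gave an adjusted p-value up to 0.05 and the groups differed 2-fold or more, and 0 of 44 genes were called in the scar zone, as were 0.0% of all genes. With the unadjusted p-value held to 0.05, *CDKN1A* and *CCND3* were higher and *CDC45* and *CDKN1C* lower in IR pigs, that is 2 of 44 in each direction, against 6.57% of all genes higher and 4.64% lower. Groups without overlap were found for *CDKN1A* with IR higher, against 2.2% of all genes, and for *CCNE2*, *CDC45* and *CDKN1C* with IR lower, against 2.65%. The median log2 fold change was -0.17 over the 44 genes and 0.03 over all genes, and 34 of 44 were below 0. Of the 32 genes of S phase to cytokinesis, 28 were below 0, including 6 of 6 cyclins, kinases and factors of G2 and mitosis. The mean log2 CPM over these 32 genes was lowest among IR pigs in pigs 9 and 11, at 3.32 and 3.67, the libraries with the high fibroblast and macrophage marker sums, while pigs 2, 11 and 14 lay within the sham range of 3.53 to 4.09. The part of these cells in the group's values was not tested. The count of 28 depended on the scaling: with log2(TPM + 1) in limma, 16 of 31 were below 0 and the median of all genes moved to 0.15. The median of the group on that scale was -0.01, again below the median of all genes.

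**Figure D3:**
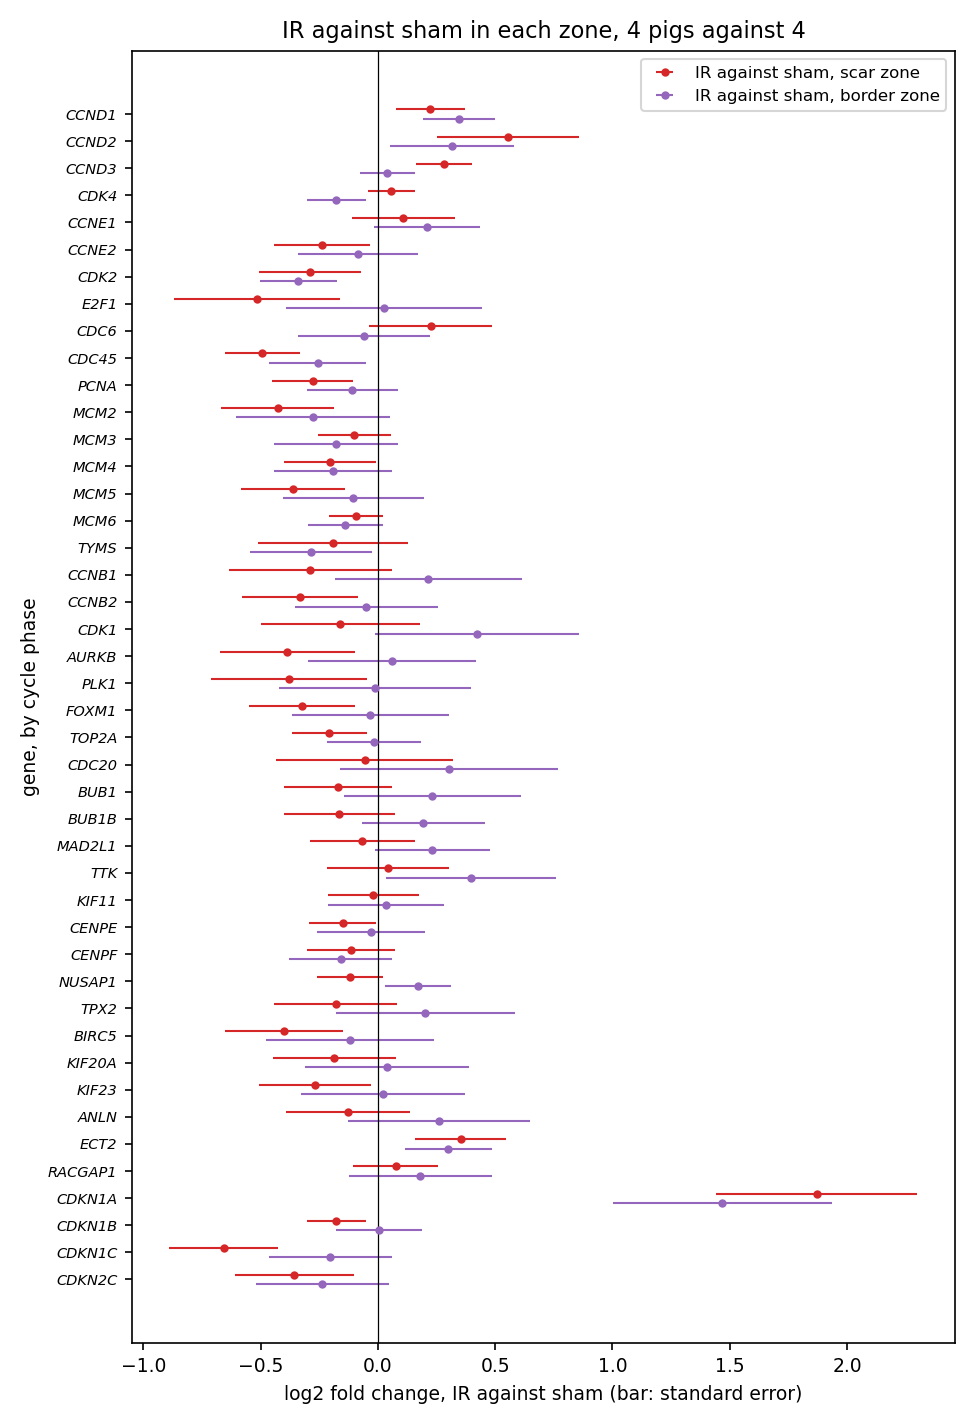
Log2 fold change of IR against sham pigs for 44 genes (points, with bars for the standard error, edgeR), in the scar zone (red) and the border zone (purple), 4 pigs against 4. *CDKN1A* lies at 1.87 and 1.47, and the other genes lie between -0.66 and 0.55.

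In the border zone, *CDKN1A* was at 24.2, 11.98, 47.8 and 10.6 CPM in IR pigs 2, 9, 11 and 14, and at 8.32, 7.78, 5.34 and 12.9 CPM in sham pigs 4, 5, 12 and 13. Pigs 2 and 11 were above all sham pigs, while pigs 9 and 14 were below sham pig 13. The log2 fold change was 1.47 ± 0.47 (SE, edgeR adjusted p = 0.988, exact permutation p = 0.0857), and leaving out single pigs gave 0.86 to 1.73. The level in pig 9 was 45.5 CPM in its scar zone and 11.98 CPM in its border zone, while pig 11 was high in both zones. The fibroblast marker sum of pig 11 in the border zone, 2214 TPM, was within the range of the other libraries. Its macrophage marker sum, 205 TPM, was exceeded outside the scar zones of pigs 9 and 11 by that of the border zone of pig 9, 231 TPM. The part of these or other cells in the *CDKN1A* level of pig 11 was not tested.

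*CCND1* was at 225, 154, 143 and 176 CPM in the border zone of IR pigs 2, 9, 11 and 14, and at 142, 124, 142 and 143 CPM in sham pigs 4, 5, 12 and 13. The groups did not overlap, but IR pig 11 exceeded sham pig 13 by less than 1 CPM, and the log2 fold change was 0.34 ± 0.15 (SE, edgeR adjusted p = 0.988). *CDK2*, the partner of E-type cyclins, was at 24.8, 15.8, 15.6 and 20.2 CPM in the IR pigs and at 25.4, 21.97, 24.8 and 24.5 CPM in the sham pigs, a log2 fold change of -0.34 ± 0.16 (SE). Only pig 2 of the IR pigs was within the sham range of *CDK2*. *CDK4* was at 46.3, 43.6, 43.9 and 44.7 CPM against 60.5, 41.6, 48.5 and 51.3 CPM, and *ECT2*, which activates the cleavage furrow, at 8.79, 7.06, 9.67 and 10.8 CPM against 7.44, 5.79, 8.06 and 8.20 CPM. Both had overlapping groups.

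Over the group, 0 of 44 genes were called in the border zone (0.0% of all genes). At the unadjusted p-value, *CDKN1A* and *CCND1* were higher in IR pigs and 0 were lower, against 2.09% and 1.69% of all genes. *CCND1* alone had IR pigs above sham pigs without overlap, against 0.794% of all genes, and 0 had IR pigs below, against 1.24%. The median log2 fold change was 0.01, against 0.00 over all genes, and 21 of 44 were below 0. These values moved with the model. With 1 factor of unwanted variation the median was -0.11, against -0.04 over all genes, and 30 of 44 were below 0. With sex as a covariate the median was -0.07, against -0.002 over all genes, and 27 of 44 were below 0. The counts moved further without pig 2. Without pig 2, 12 genes were lower at the unadjusted p-value, against 2.78% of all genes, and *CDKN1A* was higher, against 3.41%. The 12 were *PLK1*, *CDK2*, *KIF20A*, *CENPF*, *MCM5*, *MCM3*, *MCM4*, *CDC20*, *MCM2*, *BIRC5*, *CDKN2C* and *CCNB1*. The median then was -0.28, against -0.01 over all genes, 36 of 44 were below 0, and again 0 were called. Pig 2 held the highest border zone levels of most genes of S phase to cytokinesis, so leaving it out by itself lowers their IR means. The IR pigs that remained were both males and a lone female, against sham pigs with equal numbers of each sex. The fit without pig 2 therefore mixes sex with surgery and cannot assign the lower levels to surgery.

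The border zone library of pig 2 held the highest levels of most genes of cell division. On the CPM scale it was the highest of the 16 libraries for 26 of the 32 genes of S phase to cytokinesis, against 10.3% of all genes, and by TPM also for 26. *CDK1* was at 43.3 CPM there, against 20.1 CPM in the next highest library and a median of 13.4 CPM over the other 15. *CDC20* was at 74.0 CPM against a median of 23.3, *CCNB1* at 52.3 against 20.2, *TPX2* at 80.0 against 31.6 and *ANLN* at 85.8 against 37.4 CPM. The median over the 32 genes was 1.89-fold above the median of the other libraries, and 1.78-fold above the scar zone of the same pig. The replication genes ranged from *TYMS*, which makes thymidylate, at 0.958-fold of the median of the others to *MCM5* at 1.76-fold, with *PCNA* at 1.41-fold and *MCM2* at 1.74-fold, while *CDK1*, *CDC20*, *CCNB1*, *PLK1*, *TTK* and *TPX2* were at 2.53-fold to 3.23-fold. *CDKN1B* was the lowest of the 16 libraries there, at 35.7 CPM. Among 159 other cell cycle genes, the library was highest for 84, including 21 of 29 kinetochore and centromere genes and 17 of 21 spindle motor and microtubule genes. Its marker sums ranked 16th of 16 for red cells, 15th for endothelial cells, 14th for macrophages and 13th for leucocytes, and 3rd for pericytes and smooth muscle and 4th for cardiomyocytes. The part of these cells in the levels was not tested.

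**Figure D4:**
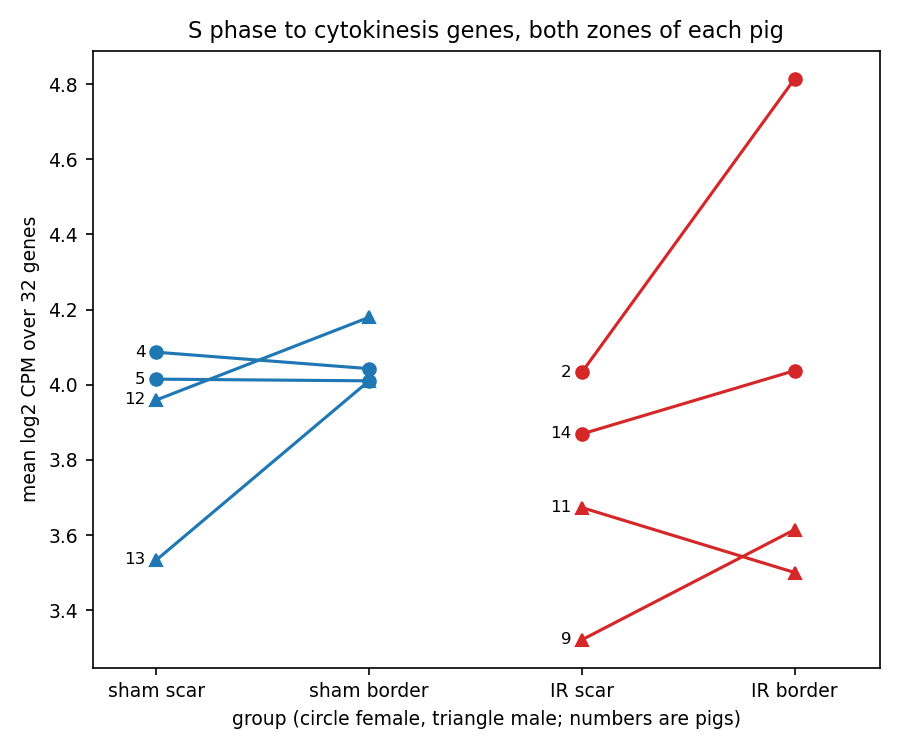
Mean log2 CPM over the 32 genes of S phase to cytokinesis in the scar and border zone of each pig, joined by a line (blue sham, red IR, circles female, triangles male, numbers for the pigs). Pig 2 stands at 4.81 in its border zone, and the 4 sham border zone libraries lie between 4.01 and 4.18.

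The mean log2 CPM over these 32 genes described the spread between pigs. In the border zone it was 4.81, 3.61, 3.501 and 4.04 in IR pigs 2, 9, 11 and 14, and 4.04, 4.01, 4.18 and 4.01 in sham pigs 4, 5, 12 and 13. The sham border zone libraries were alike (SD 0.081), and the IR ones spread above and below them (SD 0.595). In the scar zone it was 4.03, 3.32, 3.67 and 3.87 in the IR pigs and 4.09, 4.01, 3.96 and 3.53 in the sham pigs. The lowest library on this scale was the scar zone of pig 9. On the TPM scale its summed level of 209.8 TPM lay above that of 5 other libraries, and the border zone of pig 11 was lowest at 148.9 TPM.

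The scar and border zones were then compared. The main fits, here, in sham pigs and for the difference between zones, took the libraries of a heart as independent. In IR pigs, 0 of 44 genes were called (0.0% of all genes), with *CDKN1C* and *NUSAP1* lower on the scar side by the unadjusted p-value and 0 higher, against 0.805% and 3.55% of all genes. *CDKN1C* in IR pigs 2, 9, 11 and 14 was at 5.83, 6.20, 6.85 and 5.65 CPM in the scar and 8.21, 7.85, 7.27 and 9.41 CPM in the border zone, lower in the scar zone of every pig. The median log2 difference was -0.29, against 0.01 over all genes, and 38 of 44 genes were below 0, or 28 of 43 with log2(TPM + 1), where the group's median was -0.096 and that of all genes moved to 0.13. Fibroblast marker sums of pigs 9 and 11 were 10053 and 10323 TPM in the scar zone, against 1832 and 2214 TPM in their border zones. In pigs 2 and 14 they were 1808 and 1414 TPM, against 2081 and 1786 TPM. The part of these cells in the group's values was not tested. The values also leaned on pig 2. Without both its libraries the median was -0.10, against 0.00 over all genes, 30 of 44 were below 0, and 0 passed the unadjusted p-value in either direction, against 1.1% lower and 4.28% higher. Without its border zone library alone the median was 0.03, against 0.01, 19 of 44 were below 0, and *CDKN1C* was lower and 0 higher at the unadjusted p-value, against 0.983% and 3.44%. When the pig was taken as a replicate block, which pairs the zones of an animal, 7 genes were lower (*NUSAP1*, *MAD2L1*, *CDK1*, *CDKN1C*, *CCNB1*, *AURKB* and *BUB1B*) and *CCND2* was higher at the unadjusted p-value, against 4.87% and 6.49% of all genes, and 0 were called.

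In sham pigs, 0 of 44 genes were called between the zones (0.0% of all genes), with *CCNE2* lower in the scar zone and 0 higher at the unadjusted p-value, against 0.478% and 0.341% of all genes. Again 38 of 44 genes were below 0, with a median of -0.14, against 7259 of 13803 genes and a median of -0.01 over all genes. With the pig as a block, *BIRC5*, *KIF20A*, *CCNE2* and *KIF11* were lower and 0 higher, against 2.05% and 2.59%. By pig, the mean log2 CPM over the 32 genes was lower on the scar side than on the border side by 0.78 in pig 2, 0.29 in pig 9 and 0.17 in pig 14, and higher by 0.17 in pig 11. Among sham pigs it was lower by 0.22 in pig 12 and 0.48 in pig 13, and within 0.044 in pigs 4 and 5. The difference of the IR effect between the zones (scar minus border) gave 0 called genes (0.0% of all genes) and 0 at the unadjusted p-value in either direction, against 1.96% higher and 0.259% lower. With the block, *NUSAP1* was lower and 0 were higher, against 2.8% and 4.23%.

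For most of these genes in the border zone, the difference between IR and sham pigs had opposite signs in females and in males, by means of 2 pigs each. *CDK1* was at 43.3 and 19.7 CPM in IR females 2 and 14 and at 10.8 and 9.44 CPM in IR males 9 and 11. In the sham border zone it was at 12.3 and 12.4 CPM in females 4 and 5 and at 20.1 and 17.1 CPM in males 12 and 13. IR females were thus above IR males, and sham females below sham males. The IR effect in males minus that in females was -2.23 ± 0.46 for *CDK1* on the log2 scale (SE, edgeR adjusted p = 0.542, DESeq2 adjusted p = 0.00393). *ANLN* was at 85.8 and 54.9 CPM in IR females and 27.1 and 21.6 CPM in IR males, against 28.5 and 41.5 CPM in sham females and 51.7 and 36.3 CPM in sham males, an interaction of -1.86 ± 0.41 (SE, DESeq2 adjusted p = 0.00798). *MCM2* was at 33.1 and 19.7 CPM in IR females and 12.6 and 10.6 CPM in IR males, against 18.3 and 20.8 CPM in sham females and 29.9 and 22.7 CPM in sham males, an interaction of -1.61 ± 0.38 (SE, DESeq2 adjusted p = 0.0492). The edgeR test called none of these 3 genes.

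**Figure D5:**
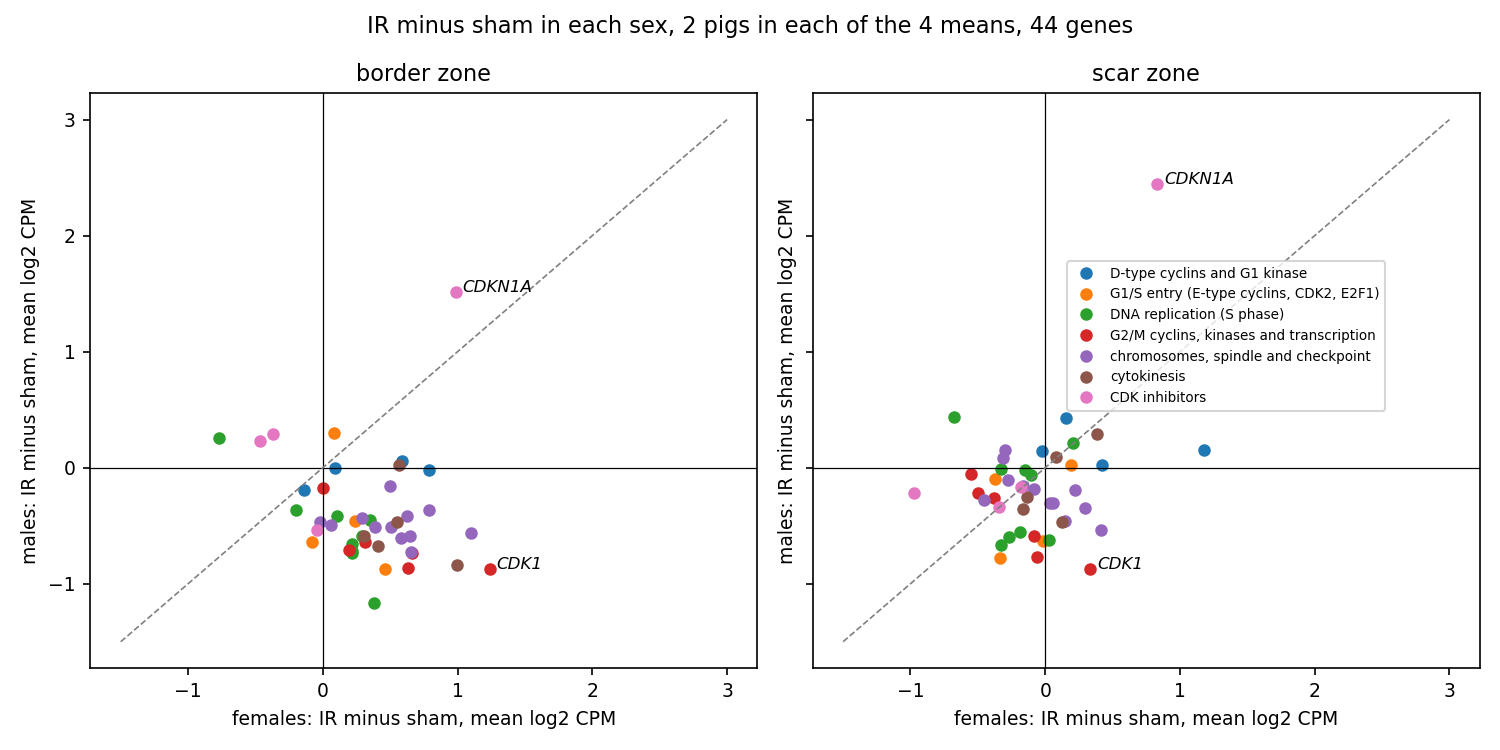
IR minus sham difference of mean log2 CPM in females (horizontal) and males (vertical) for 44 genes, in the border zone (left) and scar zone (right), with 2 pigs in each mean and colours for the phase of the cycle. The dashed line marks equal differences. In the border zone 36 genes lie right of 0 for females and 36 of 44 lie at or below 0 for males.

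Over the group, 0 of 44 interactions were called in the border zone by edgeR, against 0.014% of all genes. At the unadjusted p-value 21 were lower in males and 0 higher, against 3.85% and 3.05% of all genes. The 21 were 10 of 12 genes of chromosomes, spindle and checkpoint, 4 of 9 replication genes, 3 of 6 cyclins, kinases and factors of G2 and mitosis, 3 of 5 cytokinesis genes and *E2F1*. The median interaction was -0.92, against 0.00 over all genes. Among females the IR mean exceeded the sham mean for 36 of 44 genes (median difference 0.33), and among males for 8 of 44 (median -0.50). Without pig 2 the median was -0.53, against 0.01 over all genes, and 12 interactions were lower, against 3.91% of all genes, and that of *TYMS* was higher, against 2.74%. That fit has 1 IR female, pig 14, whose spread is assumed to be that of the other groups. Of the other cell cycle genes, 44 of 157 tested were lower at the unadjusted p-value and 1 was higher, including 13 of 29 kinetochore genes and 11 of 21 spindle genes. Both IR females were above both IR males for 35 of the 44 genes in the border zone, against 15.8% of all genes, or 31 by TPM, against 16.2%. Both sham females were above both sham males for 8, against 21.6%, or 4 by TPM, against 11%. All 4 libraries of IR males held more counts, 33521418 to 49045206, than any library of IR females, 15427663 to 21166014, so sex and depth cannot be told apart among IR pigs. By the same unadjusted p-value, 2 of 10 macrophage and 1 of 9 endothelial markers were lower in males. Of cardiomyocyte markers 1 of 13 and of red cell markers 1 of 5 were higher. The part of these cells in the interactions was not tested.

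In the scar zone the interaction of sex and surgery was less uniform. 0 of 44 were called by edgeR, against 1.33% of all genes. At the unadjusted p-value *CDKN1A* and *CENPF* were higher in males and *CDK1*, *MAD2L1*, *PCNA* and *CDK2* lower, against 9.53% and 8.99% of all genes, so the counts were near the background. The interaction of *CDKN1A* was 1.56 ± 0.40 (SE, edgeR adjusted p = 0.0988, DESeq2 adjusted p = 0.00921). In this zone the IR males were also the 2 pigs with the high fibroblast marker sums, 10053 and 10323 TPM, against 1808 and 1414 TPM in IR females, so sex and this difference cannot be told apart among IR pigs. Without pig 14, whose scar zone library held *DDX3Y* counts, 0 were called, *CDKN1A* was higher at the unadjusted p-value, against 8.47% of all genes, and *CDK1*, *MAD2L1*, *CDC20* and *CDK2* were lower, against 7.86%, in a fit where pig 2 was the lone IR female and its spread was taken from the other groups. Both IR females were above both IR males for 24 of 44 genes by CPM, against 25.1% of all genes, and for 10 by TPM, against 5.72%. In sham pigs this held for 21 by CPM, against 22.5%, and for 16 by TPM, against 23.1%. The median interaction of the group was -0.11 by edgeR, against 0.00 over all genes, and 0.27 with log2(TPM + 1), where the median of all genes moved to 0.38. With log2(TPM + 1) and no filter both medians were 0.26.

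Other cell cycle genes were read from lists of 166 names, of which 159 had a line and 157 were tested between IR and sham pigs. In the scar zone 4 were higher and 3 lower at the unadjusted p-value, smaller shares than the 6.57% and 4.64% of all genes, and 0 were called. The values of single genes that follow are a description. *MDM2*, which encodes the ubiquitin ligase of p53 and, like *CDKN1A*, is a p53 target gene, was at 24.9, 35.7, 37.1 and 29.8 CPM in IR pigs 2, 9, 11 and 14, and at 25.2, 22.04, 22.6 and 27.4 CPM in sham pigs 4, 5, 12 and 13. Only pig 2 of the IR pigs was within the sham range of *MDM2*, and the log2 fold change was 0.39 ± 0.15 (SE). *BRCA2*, a repair gene, was at 2.66, 2.82, 4.16 and 2.86 CPM in the IR pigs and at 1.76, 1.29, 2.46 and 2.06 CPM in the sham pigs, without overlap and with a log2 fold change of 0.72 ± 0.27 (SE). The phosphatase gene *CDC25A*, which activates CDK2, was at 25.2, 18.1, 16.9 and 23.8 CPM against 30.9, 29.5, 25.9 and 27.5 CPM, also without overlap, a log2 fold change of -0.45 ± 0.15 (SE). *MYCN* averaged 2.79 ± 0.41 CPM among IR pigs and 4.19 ± 0.90 CPM among sham pigs, and the kinetochore gene *ZWINT* at 1.43 ± 0.46 and 2.36 ± 0.38 CPM (SD, n = 4). The adjusted p-value was 0.438 for each of these 5 genes (edgeR).

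For the border zone, 1 of 157 was higher and 1 lower at the unadjusted p-value, again smaller shares than the 2.09% and 1.69% of all genes. *MDM2* was at 25.3, 29.9, 35.6 and 25.1 CPM in IR pigs 2, 9, 11 and 14, and at 22.7, 23.0, 23.5 and 24.0 CPM in sham pigs 4, 5, 12 and 13. The groups did not overlap, and the log2 fold change of *MDM2* was 0.32 ± 0.14 (SE, edgeR adjusted p = 0.988). The highest library was that of pig 11, as for *CDKN1A*. Pig 9 came next for *MDM2* at 29.9 CPM, whereas pig 2 came next for *CDKN1A* at 24.2 CPM. A link between these genes was not tested. *TIMELESS*, a fork protection factor, was at 3.004 ± 0.96 CPM among IR pigs and 4.67 ± 1.28 CPM among sham pigs, and its partner *TIPIN* at 9.67 ± 1.63 and 7.58 ± 0.92 CPM. *CDC27*, a subunit of the anaphase-promoting complex, was at 38.5 ± 5.37 and 31.2 ± 4.53 CPM, and *CDC25A* at 23.6 ± 2.50 and 29.3 ± 5.57 CPM (SD, n = 4). For *TIMELESS*, *TIPIN*, *CDC27* and *CDC25A* the groups overlapped, and the edgeR adjusted p-value was 0.988.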

How the data were processed

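Polyadenylated RNA of 16 libraries was sequenced by the authors. The submitters' processing notes name Trimmomatic 0.33, HISAT2 2.0.5 and kallisto 0.43.1, and the genome build and annotation release are not given in the sources used here. The authors deposited estimated counts per gene, not scaled for depth, and TPM, scaled for transcript length and depth. From these, estimated counts were rounded, filtered (filterByExpr, minimum count 10 and minimum total 15), TMM-scaled and tested with edgeR 4.0.16 in R 4.3.3 by its quasi-likelihood test. Standard errors were taken as the log2 fold change divided by the square root of the F statistic. A call needs a Benjamini-Hochberg adjusted p of at most 0.05 over all genes and a fold of at least 2. Log2 CPM uses a prior count of 2. Totals of 15427663 to 49045206 make 3 counts equal to 0.0612 to 0.194 CPM, which covers counting error only. The replicates are separate pigs.

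The 7 comparisons were IR against sham in each zone, scar against border zone in IR and in sham pigs, the difference between zones, and the difference between sexes in each zone. The pig number pairs the zones of an animal (correlation of deviations 0.354 to 0.692 over 14278 genes in all 8 pigs). Alternatives were DESeq2 1.42.0, upper-quartile scaling, no filter, limma 3.58.1 on log2(TPM + 1) and log2(TPM + 0.1) for genes of at least 1 TPM in 4 libraries, 1 factor of unwanted variation from 5000 genes, sex as a covariate, a single fit, and each pig left out. The scripts were tested on simulated data. Members and lists were chosen with earlier results of these data known. Named genes were the main cyclins, kinases, replication and mitosis genes and CDK inhibitors, the 5 lowest p-values of the group in each IR comparison and the 5 lowest of the other lists; other named genes were chosen after their values were seen. Reads shared by near-identical genes are divided by kallisto.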

Additional observations from a re-analysis of the deposited data

Results flagged for a closer look

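Of 176 sets of 4 pigs (44 genes in 4 groups), 12 had a pig far from the other 3, or 6.82%, against 5.17% over all genes tested, where chance gives about 1 in 20. Pig 9 in the IR scar zone was low for *MCM2* (9.58 CPM, the others 17.4 to 19.0), *BUB1B* (8.25 CPM, 11.4 to 12.1) and *TTK* (4.20 CPM, 8.31 to 8.84), and high for *TYMS* (23.3 CPM, 13.3 to 14.5). Pig 2 in the IR scar zone was high for *PLK1* (9.82 CPM, 4.59 to 5.06). Pig 13 in the sham scar zone was low for *CDK2* (17.9 CPM, 22.2 to 22.8) and *RACGAP1* (11.7 CPM, 16.5 to 17.3). In the sham border zone, pig 12 was high for *MCM4* (25.5 CPM, 19.3 to 19.6) and *MCM5* (15.3 CPM, 11.7 to 12.2), pig 13 for *CENPE* (17.8 CPM, 12.1 to 12.9) and pig 5 for *TOP2A* (53.5 CPM, 52.3 to 52.5), and pig 5 was low for *CCND1* (123.9 CPM, 141.7 to 142.8).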

How the results depend on the processing

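In the scar zone 1 gene (*CDKN1A*) was called by DESeq2 (0.373% of all genes) and 1 with the unadjusted p-value and a fold of 2 (3.35%), where edgeR called 0, and the log2 fold change of *CDKN1A* was 1.84 in DESeq2. In the border zone 1 was called with the unadjusted p-value (0.794%). For the difference between sexes in the scar zone, 1 was called by DESeq2 (4.72%), 1 by limma on log2(TPM + 1) (3.56%), 1 on log2(TPM + 0.1) (2.89%) and 2 with the unadjusted p-value (9.16%). In the border zone 3 were called by DESeq2 (0.29%), 16 with the unadjusted p-value (4.22%) and 0 to 1 with each pig left out (*CDK1* without pig 14, 0.0409%). The cause was not tested. The counts at the unadjusted p-value were examined after seeing the data, and each percentage is of all genes in the same fit, both directions together. That of the scar zone, 4 (11.2%), was 7 with 1 factor of unwanted variation (15%) and 3 to 8 with each pig left out (8 without pig 13, 11.2%). That of the border zone, 2 (3.78%), was 1 with upper-quartile scaling (3.62%) and with limma in 3 settings (3.0% to 3.2%), and 1 to 13 with each pig left out (13 without pig 2, 6.2%). That of the sexes was 21 in the border zone (6.91%), with 13 to 30 as each pig was left out (13 without pig 2, 6.65%), and 6 in the scar zone (18.5%), with 3 in limma without a filter (18.5%) and 2 to 10 as each pig was left out (2 without pig 9, 15.5%, 3 without pig 12, 13.4%, and 10 without pig 13, 12.6%). Each fit of the sexes without 1 pig leaves 1 sex and surgery group with a single pig, which is assumed to vary like the other groups, so these ranges say little about stability. With the pig as a replicate block 0 genes were called, and the block changed no other call. Leaving out the border zone library of pig 2, added after seeing the data, also gave 0 called in both comparisons between zones of IR pigs that use it.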
